A study of Mus musculus with 8 samples.

Results

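A set of 10 transcripts that mark cells outside the epithelium was followed in RNA-seq libraries of colon epithelial cells. They were Dcn, Col1a1, Col3a1 and Cxcl12 for fibroblasts and matrix, Acta2 and Actg2 for smooth muscle, Csf1r, Adgre1 and Aif1 for macrophages, and Alas2 for the erythroid lineage. All 10 symbols were found among the 24346 genes of the tables. The cells came from untreated C57BL/6J mice that carried St6galnac6-/- or B3gnt7-/- (knockouts of glycosyltransferase genes), B3galt5D116A (a substitution in another glycosyltransferase), or the wild-type (WT) alleles. Each of the 4 genotypes had 2 libraries, 1 from a male and 1 from a female, which makes 8 libraries. The labels used here give no age, no batch and no account of how the epithelium was isolated, and 1 library may stand for 1 animal or for several. P-values therefore measure only the spread between these libraries.

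The colon wall holds an epithelial sheet on a lamina propria of fibroblasts, vessels and immune cells, with smooth muscle beneath it and a mesothelial covering on its outer face. Fibroblasts make collagens and small proteoglycans, muscle cells are rich in smooth muscle actins, and resident macrophages depend on the receptor Csf1r. A preparation of epithelial cells can be described by how little of these transcripts it holds. In bulk RNA, fewer cells of a type and less RNA per cell cannot be told apart.

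Values are FPKM, the fragments of a gene per kilobase of its transcript and relative to the total mapped in the library. The epithelial label fitted the data in every library: the adhesion molecule Epcam was at 864 to 953 FPKM, the keratin Krt8 at 3747 to 5508 FPKM and the galectin Lgals4 at 2803 to 3954 FPKM. FPKM sums were 518482 to 639537 per library. Libraries of 1 genotype correlated with r from 0.974 to 0.986 over the 11537 genes tested, and those of different genotypes with r from 0.971 to 0.988. St6galnac6 was lowest in both St6galnac6-/- libraries (218 and 232 FPKM, against 343 to 495 FPKM elsewhere), and B3gnt7 in both B3gnt7-/- libraries (68.8 and 142 FPKM, against 154 to 266 FPKM elsewhere), so transcript of both genes remained. The substitution in B3galt5 cannot be checked from its transcript level. One library stood apart for the matrix genes described here, that of the B3gnt7-/- female, and values are therefore given with and without it.

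The genes lie on mm10 chromosomes 10 (Dcn, 97479609 to 97518143), 11 (Col1a1, 94936224 to 94953042), 1 (Col3a1, 45311538 to 45349706), 6 (Cxcl12, 117168535 to 117181367, and Actg2, 83512905 to 83536265), 19 (Acta2, 34241090 to 34255590), 18 (Csf1r, 61100598 to 61132149), 17 (Adgre1, 57358691 to 57483527, and Aif1, 35170991 to 35176068) and X (Alas2, 150547375 to 150570638), by the GENCODE M21 annotation. All are protein-coding, and how their transcripts were combined into 1 value per gene is not given in the sources used here. Csf1r overlaps Hmgxb3 and Alas2 overlaps Apex2 on the opposite strand. The kit marks strand, but whether the counting used it is not given in the sources used here.

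Promoters of 5 of the 10 genes were in the RefSeq table of GRCm38.p6. Those of the matrix genes Col3a1 and Cxcl12 are shown because only these overlapped no exon of the GENCODE annotation. Each run holds the 250 bases before the RefSeq start, 5′ to 3′ on the plus strand, at chr1:45311288-45311537 for Col3a1 and chr6:117168285-117168534 for Cxcl12. The same stretch overlapped such exons in Acta2 (217 bases), Alas2 (42 bases) and Aif1 (16 bases). Capitals mark matches to TATAA, which was searched on both strands together with the promoter element CCAAT.
Col3a1: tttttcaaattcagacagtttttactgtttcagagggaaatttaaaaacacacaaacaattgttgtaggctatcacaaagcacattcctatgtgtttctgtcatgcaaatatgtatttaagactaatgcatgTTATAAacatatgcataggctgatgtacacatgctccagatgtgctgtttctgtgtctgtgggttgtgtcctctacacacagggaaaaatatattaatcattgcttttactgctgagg
Cxcl12: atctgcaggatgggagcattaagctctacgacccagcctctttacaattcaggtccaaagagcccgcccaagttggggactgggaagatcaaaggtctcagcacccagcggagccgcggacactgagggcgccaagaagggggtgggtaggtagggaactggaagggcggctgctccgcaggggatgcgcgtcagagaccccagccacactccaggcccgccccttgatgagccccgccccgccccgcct
In Col3a1, TATAA matched 2 times, on opposite strands and overlapping, from 118 to 113 bases before the start, and CCAAT did not match. In Cxcl12 neither motif matched. Of 32851 promoters in the table, 22.8% held TATAA and 33.8% held CCAAT. These matches describe the sequence alone.

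Among the matrix genes, 3 were far higher in the B3gnt7-/- female library than in any other. Dcn encodes decorin, a proteoglycan that binds collagen fibrils. With the male of each genotype given before the female here and in what follows, it was at 2.88 and 3.03 FPKM in St6galnac6-/- libraries, 2.59 and 2.73 FPKM in B3galt5D116A, 2.45 and 18.9 FPKM in B3gnt7-/-, and 3.35 and 2.101 FPKM in WT. The B3gnt7-/- female was thus 5.63 times the highest of the other 7 libraries and 7.71 times the male of its genotype. The other 7 lay within 2.101 to 3.35 FPKM, the range that the WT pair spanned.

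Col3a1 encodes the chain of type III collagen, a fibrillar collagen of soft tissues. It was at 0.301 and 0.567 FPKM in St6galnac6-/- libraries, 0.358 and 0.443 FPKM in B3galt5D116A, 0.370 and 3.61 FPKM in B3gnt7-/-, and 0.520 and 0.402 FPKM in WT. Again only the B3gnt7-/- female left the common range, at 6.38 times the highest other library. Col1a1, a chain of type I collagen, was at 0.0945 and 0.101 FPKM in St6galnac6-/- libraries, 0.0790 and 0.237 FPKM in B3galt5D116A, 0.0982 and 1.58 FPKM in B3gnt7-/-, and 0.184 and 0.0873 FPKM in WT. Its B3gnt7-/- female value was 6.66 times the next highest.

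Cxcl12, a chemokine made by stromal cells, did not follow the other matrix genes. It was at 0.368 and 0.360 FPKM in St6galnac6-/- libraries, 0.345 and 0.0276 FPKM in B3galt5D116A, 0.239 and 0.0523 FPKM in B3gnt7-/-, and 0.123 and 0.233 FPKM in WT. Both St6galnac6-/- libraries were above both WT libraries, and the B3gnt7-/- female was the second lowest of the 8.

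**Figure D1:**
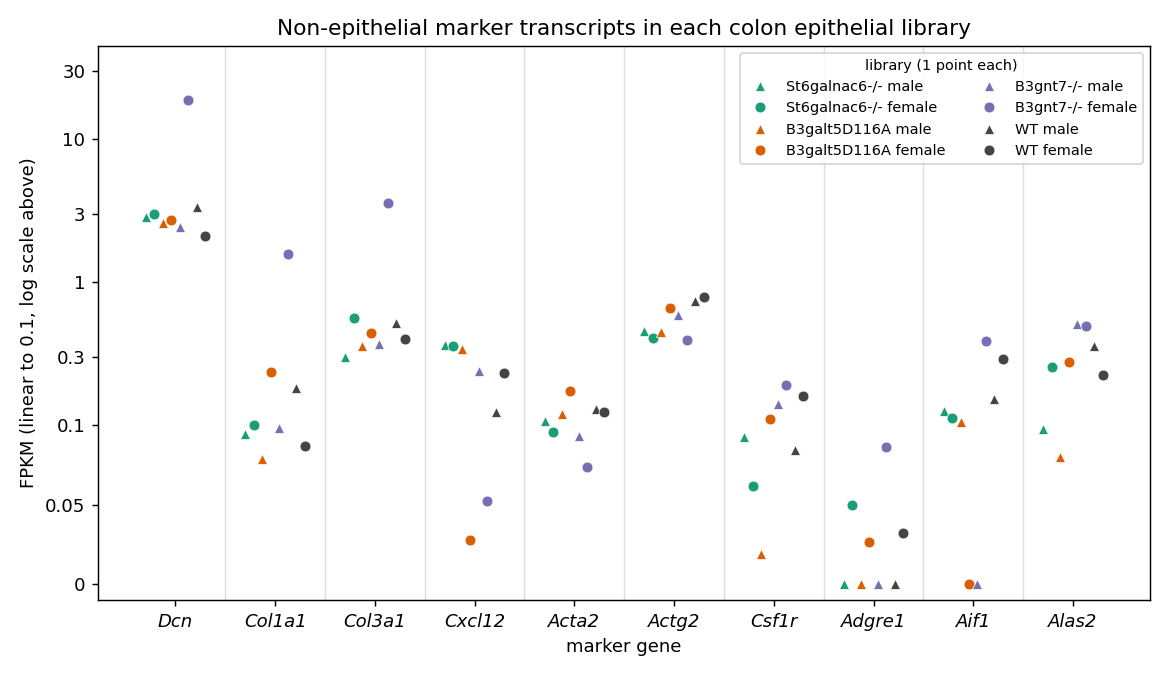
FPKM (y axis, linear to 0.1 and logarithmic above) of the 10 marker genes (x axis) in each library, with 1 point per library, colours for genotype, triangles for males and circles for females. For Dcn, Col1a1 and Col3a1 the B3gnt7-/- female lies at 18.9, 1.58 and 3.61 FPKM, apart from the other 7 libraries, and for Cxcl12 it lies near the bottom of the 8.

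The smooth muscle actins gave no such pattern. Acta2, the actin of vascular smooth muscle and myofibroblasts, was at 0.108 and 0.0961 FPKM in St6galnac6-/- libraries, 0.120 and 0.173 FPKM in B3galt5D116A, 0.0931 and 0.0740 FPKM in B3gnt7-/-, and 0.131 and 0.124 FPKM in WT. Its lowest value was that of the B3gnt7-/- female. Actg2, the actin typical of visceral smooth muscle, was at 0.458 and 0.409 FPKM in St6galnac6-/- libraries, 0.447 and 0.663 FPKM in B3galt5D116A, 0.595 and 0.394 FPKM in B3gnt7-/-, and 0.742 and 0.793 FPKM in WT. All 6 mutant libraries were below both WT libraries for Actg2, and the B3gnt7-/- female was again lowest. Acta2 and Actg2 are close paralogs of each other and of the actins that every cell makes, so that reads may be shared among them.

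The macrophage markers were near 0 throughout. Csf1r, the receptor for the macrophage growth factor, was at 0.0925 and 0.0620 FPKM in St6galnac6-/- libraries, 0.0194 and 0.112 FPKM in B3galt5D116A, 0.140 and 0.191 FPKM in B3gnt7-/-, and 0.0843 and 0.160 FPKM in WT. Both B3gnt7-/- values were higher than those of the other mutants, but the B3gnt7-/- pair overlapped with WT. Aif1, which encodes the calcium-binding protein IBA1, was at 0.126 and 0.113 FPKM in St6galnac6-/- libraries, 0.106 and 0 FPKM in B3galt5D116A, 0 and 0.391 FPKM in B3gnt7-/-, and 0.153 and 0.291 FPKM in WT. Adgre1, which encodes the F4/80 antigen, was listed at 0 in all 4 males. In females it was at 0.0499 FPKM in St6galnac6-/- libraries, 0.0269 FPKM in B3galt5D116A, 0.0865 FPKM in B3gnt7-/- and 0.0322 FPKM in WT.

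Alas2, the erythroid enzyme that starts heme synthesis, was at 0.0981 and 0.256 FPKM in St6galnac6-/- libraries, 0.0800 and 0.277 FPKM in B3galt5D116A, 0.510 and 0.493 FPKM in B3gnt7-/-, and 0.358 and 0.227 FPKM in WT. Both B3gnt7-/- libraries were above the other 6. Among erythroid transcripts, the globins Hbb-b1 and Hba-a1 were also highest in the B3gnt7-/- female, at 56.2 FPKM against 9.60 to 24.5 FPKM in the others for Hbb-b1 and 48.1 FPKM against 8.12 to 22.8 FPKM for Hba-a1. The B3gnt7-/- male, with as much Alas2, was at 16.8 FPKM Hbb-b1, inside that range. Globin genes have near-identical copies, and the tables gave Hbb-bs between 0.00502 and 0.00554 FPKM in every library, so the split among copies is uncertain.

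The size of these low values could be read more closely. For 84.8% of 3339 genes with a mean under 0.5 FPKM and at least 4 values above 0, FPKM multiplied by a library's relative depth (1 in the WT male, up to 1.45 in the B3galt5D116A male) gave whole multiples of 1 step per gene, within 0.01. Whether a step is 1 fragment cannot be shown without counts. Of the 10 markers, 6 resolved in this way. Acta2 was at 3 and 3 steps in St6galnac6-/-, 4 and 5 in B3galt5D116A, 3 and 2 in B3gnt7-/-, and 3 and 3 in WT. The St6galnac6-/- and WT libraries therefore held the same number of steps, although their FPKM values did not overlap. Actg2 was at 6 and 6, 7 and 9, 9 and 5, and 8 and 9 steps in the same order of genotypes. Csf1r ran from 1 to 8 steps, Adgre1 from 0 to 3 and Aif1 from 0 to 3. Over all 8 libraries the steps summed to 26 for Acta2, 59 for Actg2, 37 for Csf1r, 7 for Adgre1 and 9 for Aif1. Col1a1 was different: it was at 5 and 6 steps in St6galnac6-/-, 5 and 13 in B3galt5D116A, 6 and 81 in B3gnt7-/-, and 8 and 4 in WT. Dcn, Col3a1, Cxcl12 and Alas2 did not resolve into steps.

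**Figure D2:**
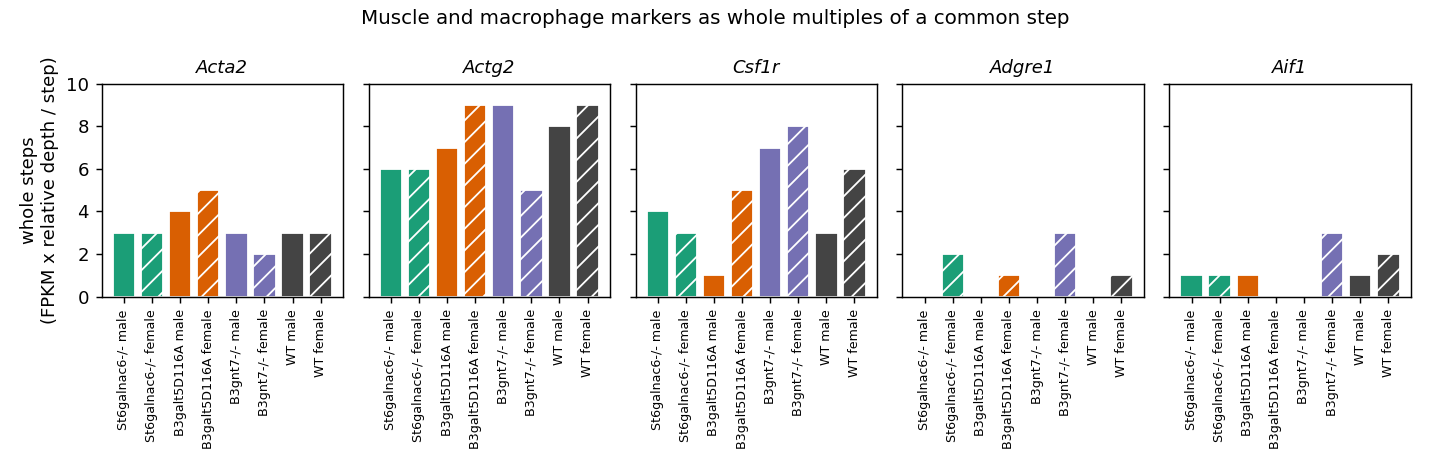
Whole steps (y axis, FPKM times relative depth divided by the step of that gene) of Acta2, Actg2, Csf1r, Adgre1 and Aif1 in each library (x axis), with 1 bar per library, colours for genotype and hatching for females. No bar exceeds 9 steps, Acta2 lies between 2 and 5, and Adgre1 is at 0 in all 4 males.

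In order of their mean over the 7 libraries other than the B3gnt7-/- female, the markers ran from Dcn (2.73 ± 0.407 FPKM, SD, n = 7) through Actg2 (0.587 ± 0.153), Col3a1 (0.423 ± 0.0938), Alas2 (0.258 ± 0.148), Cxcl12 (0.242 ± 0.129), Col1a1 (0.126 ± 0.0602), Acta2 (0.121 ± 0.0270), Aif1 (0.113 ± 0.0994) and Csf1r (0.0958 ± 0.0474) to Adgre1 (0.0156 ± 0.0206). The range of Dcn did not overlap with that of any other gene, and every other gene overlapped with its neighbours in this order. Relative to Epcam of the same library, Dcn was at 0.240% to 2.18%, and each of the other 9 was under 0.418%.

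The genotypes were compared with limma on log2(FPKM + 1), where a gene needed a mean of at least 1 FPKM to be tested. Only Dcn reached this level, and the other 9 markers were not tested. In St6galnac6-/-, Dcn averaged 2.95 ± 0.102 FPKM against 2.73 ± 0.886 FPKM in WT (SD, n = 2 each), a log2 difference of 0.11 (SE 0.64, limma adjusted p = 0.979). In B3galt5D116A it averaged 2.66 ± 0.0999 FPKM against the same WT pair, with a log2 difference of -0.01 (SE 0.64, limma adjusted p = 0.999). In B3gnt7-/- it averaged 10.7 ± 11.6 FPKM, a log2 difference of 1.17 (SE 0.64, limma adjusted p = 0.767). These 3 comparisons share the WT libraries. The test for any difference between the 4 genotypes gave adjusted p = 0.782, and males against females gave a log2 difference of -0.54 (SE 0.45, limma adjusted p = 0.9998).

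Thus limma called 0 of 1 marker tested in each comparison, with 0 at an unadjusted p under 0.05, where 0.0867% of all tested genes were called in St6galnac6-/- against WT, 0.078% in B3galt5D116A against WT, 0.052% in B3gnt7-/- against WT, 0.0867% for any difference between genotypes and 0.052% for sex. The B3gnt7-/- difference of Dcn rested on the female: without that library it was -0.16 (adjusted p = 0.872). Without the B3gnt7-/- male it was 2.50 (SE 0.24, adjusted p = 0.0136, limma), with the lone female library assumed to vary like the other groups and 0.46% of genes called. When all 17801 genes above 0 were tested, none of the 10 markers passed in any comparison, and the smallest unadjusted p was 0.0377 for Actg2 in St6galnac6-/- (log2 difference -0.30, limma adjusted p = 0.596). The next was 0.0442 for Adgre1 in males against females (log2 difference -0.07, limma adjusted p = 0.9999). With a pseudocount of 0.1, a setting chosen after seeing the data, the unadjusted p of Adgre1 was 0.0172 (limma adjusted p = 0.9999).

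Non-overlap of the 2 mutant and 2 WT libraries was counted for all 10 markers. In St6galnac6-/-, Cxcl12 lay above WT and Acta2, Actg2 and Aif1 lay below it, 4 of 10 where 40.0% of all genes above 0 did not overlap. In B3galt5D116A, Actg2 and Aif1 lay below WT, 2 of 10 against 42.0% of genes. In B3gnt7-/-, Alas2 lay above and Acta2 and Actg2 below, 3 of 10 against 31.3% of genes. These shares were at or under those of all genes. Dcn, Col1a1 and Col3a1 overlapped with WT in every genotype, with the B3gnt7-/- male within or below the WT range.

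Across the 8 libraries the 3 matrix genes varied together through 1 library. Of 45 pairs among the 10 markers, 0 passed after adjustment by an exact permutation test of Pearson's r (5 at an unadjusted p under 0.05) or of Spearman's rho (3 unadjusted). Dcn and Col3a1 had r = 0.987 (exact permutation p = 0.0161, adjusted 0.25) and rho = 0.643 (p = 0.0962, adjusted 0.618), two-sided. Without the 2 libraries farthest from the median of Dcn, r was 0.624. Dcn and Col1a1 had r = 0.984 (exact permutation p = 0.0202, adjusted 0.25) and rho = 0.714 (p = 0.0576, adjusted 0.518), and r = 0.342 without the 2 farthest. Relations among Dcn, Col1a1 and Col3a1 rest on the B3gnt7-/- female library. Also at an unadjusted p under 0.05 were Col3a1 with Adgre1 (r = 0.833, exact permutation p = 0.0107, adjusted 0.25) and Col1a1 with Cxcl12 (r = -0.617, exact permutation p = 0.0323, adjusted 0.291). Without the B3gnt7-/- female, r was 0.605 for Col3a1 with Adgre1 and -0.911 for Col1a1 with Cxcl12. Of the genes tested, those most like Dcn by Pearson's r over 8 libraries were the small RNA genes Mir6992 and Snord16a (r = 0.985 each) and the complement gene C3 (r = 0.984). Mir6992 and Snord16a were listed at 0 in the other 7 libraries, so they reached a mean of 1 FPKM only through the B3gnt7-/- female. Their r with Dcn was fixed by that library and says nothing about likeness over the others. C3 was at 42.6 FPKM in the B3gnt7-/- female, against 2.44 to 5.94 FPKM in the others. Its r with Dcn over those other 7 was 0.837, but C3 was picked by its r over all 8 libraries, which include those 7.

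A wider set of marker lists placed the 10 genes among others of the same cell types. Each gene above 0 was assigned to the library in which it was highest. The B3gnt7-/- female held 20.6% of all 17801 such genes, and 26.3% of the 7194 with a mean under 2 FPKM. Of the 10 markers it held 6, which were Dcn, Col1a1, Col3a1, Csf1r, Adgre1 and Aif1. Of 27 fibroblast and matrix genes it held 21, and 18 of the 23 that are not among the 10 markers. The sum of those 23 was 18.6 FPKM in the B3gnt7-/- female, against 5.52 to 7.38 FPKM in the others. Sparc, a matrix glycoprotein, was at 3.67 FPKM there and at 0.322 to 0.874 FPKM elsewhere. Fbln1, a matrix fibulin, did not stand apart (0.944 FPKM against 0.404 to 1.20 FPKM), nor did the receptor Pdgfrb (3.16 FPKM against 1.999 to 3.32 FPKM). The surface glycoprotein Thy1 was at 1.03 FPKM against 0.256 to 0.720 FPKM. Named after their values were seen, the collagen chains Col1a2 (1.08 FPKM against 0.0516 to 0.272 FPKM) and Col6a1 (1.88 FPKM against 0.0869 to 0.403 FPKM) were higher in that library, while the proteoglycan Lum was at 0.0468 FPKM, against 0 to 0.0811 FPKM.

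Mesothelial markers were high in the same library. Msln, which encodes mesothelin of the outer covering of the gut, was at 6.65 FPKM in the B3gnt7-/- female, against 0.615 to 1.35 FPKM in the others. Upk3b was at 6.12 FPKM against 0.233 to 1.63 FPKM, and Lrrn4 at 1.31 FPKM against 0.0899 to 0.252 FPKM. Of the 5 fat and mesothelium genes above 0, 4 were highest there, and the exception was the fat gene Fabp4 (0.200 FPKM there, against 0 to 0.373 FPKM in the others). The fat genes Adipoq, Plin1 and Cfd were at 0 in all 8 libraries. The summed level of the list was 14.6 FPKM in that library and 1.18 to 2.60 FPKM in the others. The part of mesothelial or other cells in the Dcn and collagen values was not tested.

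**Figure D3:**
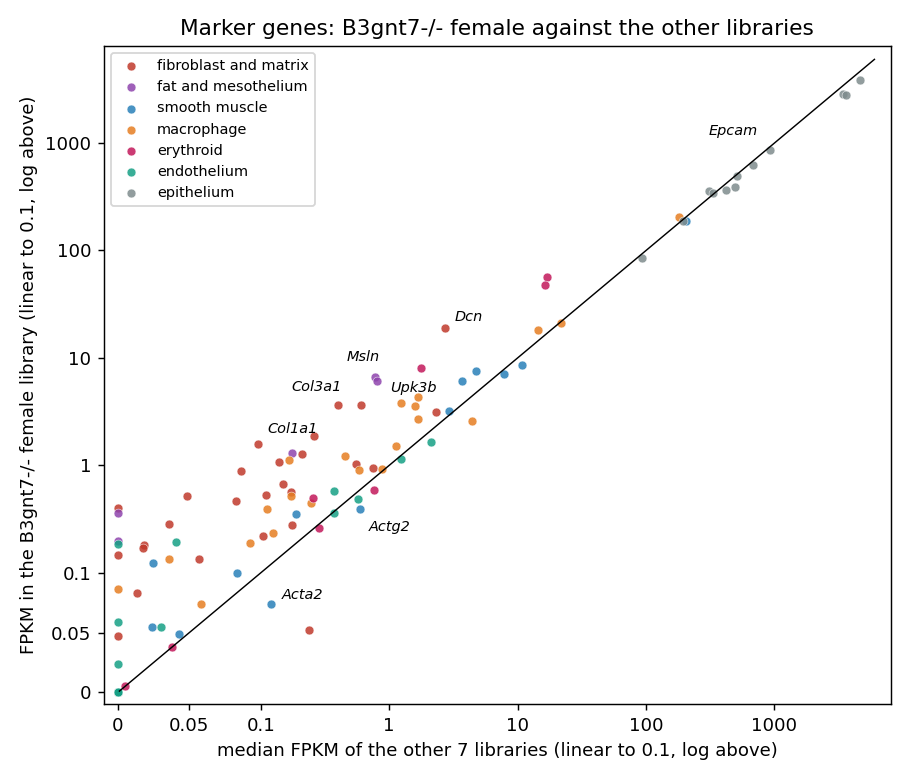
FPKM of genes of 7 marker lists in the B3gnt7-/- female library (y axis) against the median of the other 7 libraries (x axis), both linear to 0.1 and logarithmic above, with 1 point per gene, colours for lists and the line of equality. Dcn, Col1a1, Col3a1, Msln and Upk3b lie above the line, Acta2 and Actg2 below it, and Epcam close to it.

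Smooth muscle genes did not share this. Of 15 above 0, 5 were highest in the B3gnt7-/- female, and Myocd, Pln and Hhip were at 0 in every library. The summed level was 221 FPKM there and 232 to 243 FPKM elsewhere, nearly all of it Tpm1, a tropomyosin that many cell types make (187 FPKM against 198 to 211 FPKM). Also above 1 FPKM in all libraries were the kinase Mylk (8.51 FPKM against 7.85 to 12.0 FPKM), the actin-binding proteins Smtn (7.14 FPKM against 6.10 to 11.7 FPKM) and Tagln (7.54 FPKM against 3.20 to 5.37 FPKM). The muscle myosin Myh11 was at 0.0549 FPKM in the B3gnt7-/- female and at 0 to 0.0333 FPKM in the others.

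Of 22 macrophage genes above 0, 12 were highest in the B3gnt7-/- female, 9 of 19 without Csf1r, Adgre1 and Aif1. The scavenger receptor Cd163 was at 0 in all libraries. The list summed to 269.6 FPKM there and to 217 to 262 FPKM elsewhere, mostly the protease Ctss (205 FPKM against 163 to 211 FPKM). Among its other abundant members were Cd14 (21.3 FPKM against 19.1 to 27.5 FPKM) and Mertk (18.3 FPKM against 12.4 to 19.95 FPKM). Named after their values were seen, Lyz2 and C1qb were highest in the B3gnt7-/- female. Lyz2 was at 3.79 FPKM against 0.894 to 1.81 FPKM, and C1qb at 1.12 FPKM against 0 to 0.480 FPKM. C1qa and Cd68, named in the same way, were highest in the B3galt5D116A female. C1qa was at 3.45 FPKM in that library, against 0.897 FPKM in the B3gnt7-/- female. Cd68 was at 3.62 FPKM in the B3galt5D116A female, close to the 3.49 and 3.57 FPKM of the B3gnt7-/- libraries. In WT, Cd68 was at 1.58 and 0.939 FPKM. Class II MHC genes, which macrophages and dendritic cells also express, went another way. Cd74, the invariant chain, was at 34.0 and 39.2 FPKM in St6galnac6-/- libraries, 6.43 and 4.13 FPKM in B3galt5D116A, 35.9 and 11.9 FPKM in B3gnt7-/-, and 8.53 and 6.55 FPKM in WT. Limma called 0 of the 6 class II genes tested in St6galnac6-/- and 0 of 6 in B3gnt7-/-, with 5 at an unadjusted p under 0.05 in each, a level that 9.04% of all tested genes passed in St6galnac6-/- and 7.17% in B3gnt7-/-.

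The remaining lists had few detected genes. The B3gnt7-/- female was highest for 3 of 12 endothelial genes (4.75 FPKM summed, against 3.72 to 5.64 FPKM), with Emcn at 0 in all libraries, and for 3 of 5 dendritic cell, 2 of 4 pericyte, 1 of 10 enteric glia and neuron, 2 of 6 mast cell, 0 of 5 neutrophil, 1 of 6 B and plasma cell and 3 of 10 erythroid genes. It was highest for 6 of 11 T and intraepithelial lymphocyte genes, whose sum was 24.9 FPKM there and 9.25 to 22.5 FPKM elsewhere. Of 12 epithelial genes it was highest for 1, and of 7 class II MHC genes for 0. The epithelial genes summed to 13186.4 FPKM in the B3gnt7-/- female, the lowest of the 8 libraries, and to 13386.0 to 17600.5 FPKM elsewhere. The B3gnt7-/- female also had the lowest FPKM sum over all genes, 518482. Of the 51 genes of the 15 lists that could be tested, limma called 0 in each of the 5 comparisons. At an unadjusted p under 0.05 there were 8 of 51 in St6galnac6-/- (9.04% of all tested genes), 4 in B3galt5D116A (11.7%), 13 in B3gnt7-/- (7.17%), 11 for any difference between genotypes (6.68%) and 1 for sex (1.66%). Msln, Sparc and Upk3b reached a mean of 1 FPKM only through the B3gnt7-/- female, and without these 3 genes there were 12 of 48 in B3gnt7-/-. The smallest adjusted p was 0.0655, for the class II gene H2-Aa in the limma test for any difference.

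**Figure D4:**
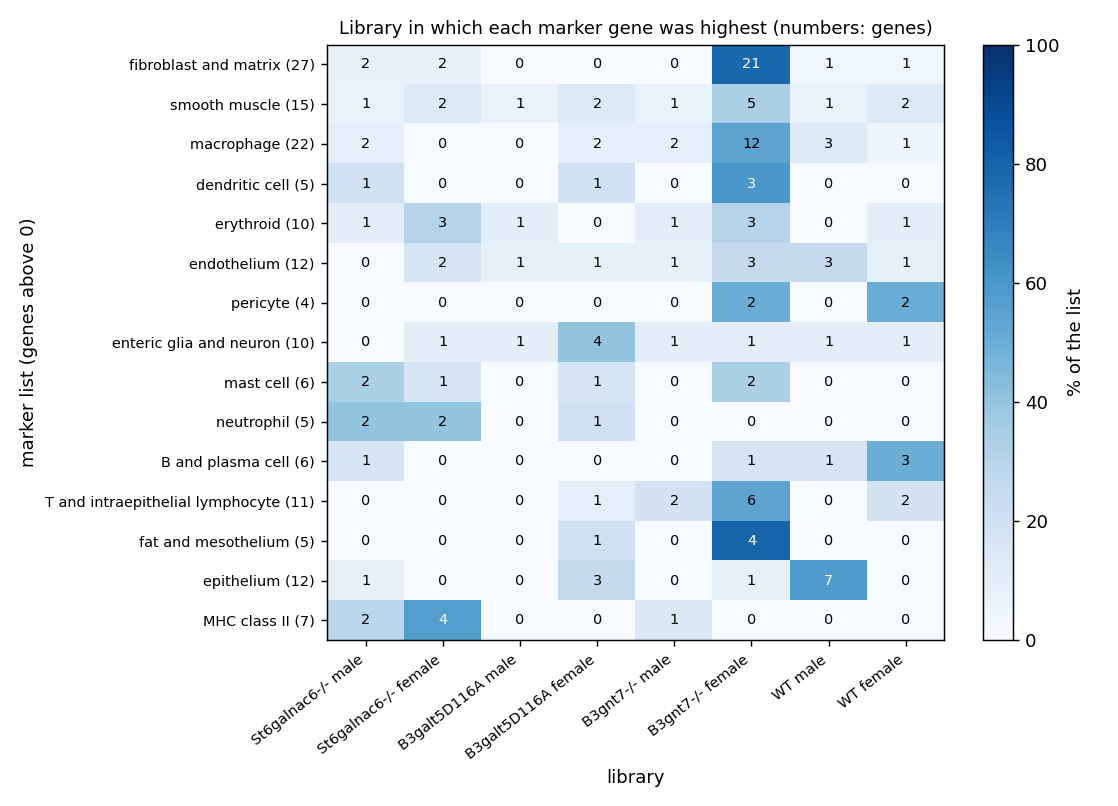
For each marker list (rows, with the number of genes above 0 in brackets), the number of genes that were highest in each library (columns), with colour for the percentage of the list. The B3gnt7-/- female column holds 21 of 27 fibroblast and matrix genes and 4 of 5 fat and mesothelium genes, but 5 of 15 smooth muscle and 1 of 12 epithelial genes.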

How the data were processed

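The submitters' processing notes list the build mm10 with Cuffdiff 2.2.1, SAMtools 0.1.18, Bowtie2 2.2.8 and TopHat2 2.1.1. Their parameters and annotation are not given in the sources used here. RNA came from the miRNeasy Micro Kit and sequencing libraries from the TruSeq stranded mRNA kit, per the labels' protocols. The authors deposited 1 table of FPKM per library, per the file headers. The scaling between libraries is likewise not given in the sources used here. No counts are given, so no counting interval is printed, and 8471 to 9175 genes per library were listed at 0, which may include failed estimates.

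Values were taken as log2(FPKM + 1), a scale that understates the change of low genes. Genes whose mean reached 1 FPKM entered 1 limma fit (version 3.58.1, R 4.3.3, moderated with a mean trend) of all 8 libraries, with genotype and sex as additive terms, which left 3 residual degrees of freedom. Tests were two-sided, adjusted by Benjamini-Hochberg over 11537 genes, with a threshold of 0.05. The fit was tested on simulated data. Relative depth is the inverse of the most frequent ratio of values under 0.15 FPKM to those of the WT male. It rested on 740 to 907 genes, of which 27.7% to 33.9% lay at that ratio.

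The markers and the 15 lists were chosen with earlier results of these data known. Beside the 10 markers, the text names the up to 4 most abundant other genes of the lists it describes and the 3 genes most like a tested marker, and says where a gene was named later. A gene that this rule names is not reported here. Python 3.11.15 was used for the rest.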

Additional observations from a re-analysis of the deposited data

Results flagged for a closer look

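Among the 10 markers, 3 had 1 library far from the other 7 by Dixon's criterion on log2(FPKM + 1), which chance meets in about 1 of 20 sets. They were Dcn (18.9 FPKM), Col1a1 (1.58 FPKM) and Col3a1 (3.61 FPKM), each in the B3gnt7-/- female, with a gap to the next library of 0.817, 0.843 and 0.853 of the whole range, above the critical value for 8 libraries. The same 3 genes went opposite ways in the sexes. The 3 mutant males lay below the WT male, by a mean of -0.714 FPKM for Dcn, -0.0931 FPKM for Col1a1 and -0.177 FPKM for Col3a1. All 3 mutant females lay above the WT female, by a mean of 6.11 FPKM for Dcn, 0.552 FPKM for Col1a1 and 1.14 FPKM for Col3a1. Without the B3gnt7-/- female, the other 2 mutant females were above the WT female by a mean of 0.777 FPKM for Dcn, 0.0820 FPKM for Col1a1 and 0.103 FPKM for Col3a1. Within a sex the 3 mutants share 1 WT library, and this difference between the sexes was not tested.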

How the results depend on the processing

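With each library left out in turn, limma called 0 to 1 markers in B3gnt7-/- against WT and for any difference between genotypes, the 1 being Dcn without the B3gnt7-/- male, and 0 in the other comparisons. The log2 difference of Dcn then ran from -0.58 to 0.79 in St6galnac6-/-, -0.69 to 0.68 in B3galt5D116A, -0.16 to 2.50 in B3gnt7-/- and -0.88 to 0.13 for males against females. Near 0 in B3galt5D116A, it turned positive with a pseudocount of 0.1 (0.00061, also with no filter on low values, a setting chosen after seeing the data) and with quantile normalization (0.0012). A mean of at least 5 FPKM left no marker to test. No sex term, which removes the pairing of libraries by sex, gave 0 markers called. FPKM scaled to the same sum moved the Dcn ratio of the B3gnt7-/- female to the highest other library to 6.62. Of 80 recomputed level values of the markers, 6 moved by more than 1 SD, and the largest shift over all 80 was 13.3%. Over all genes the count called ran over 0 to 134 in St6galnac6-/- (10 as reported), 1 to 122 in B3galt5D116A (9), 1 to 53 in B3gnt7-/- (6), 1 to 77 for any difference (10) and 4 to 6 for sex (6). The highest of these came from fitting only the 2 genotypes compared in the first 2, and from leaving out the B3gnt7-/- male in the next 2. Marker pairs stayed at 0 in 11 settings chosen after seeing the data.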

Other observations

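Within the mast cell list, genes differed in which library was highest. Cma1, a mast cell chymase, was at 6.70 and 7.995 FPKM in St6galnac6-/- libraries, 2.195 and 1.59 FPKM in B3galt5D116A, 2.61 and 0.702 FPKM in B3gnt7-/-, and 0.709 and 0.673 FPKM in WT, with the male of each genotype given before the female. Both St6galnac6-/- values were the highest, and the difference from WT was 2.30 on the log2 scale (SE 0.30, limma adjusted p = 0.0752), short of the threshold of 0.05. Mcpt1, another mast cell protease, was at 2.36 and 1.10 FPKM in St6galnac6-/- libraries, 0.860 and 0.397 FPKM in B3galt5D116A, 0.445 and 0 FPKM in B3gnt7-/-, and 0.125 and 0 FPKM in WT. The mast cell gene Mcpt4 was at 0 in every library, and Cpa3 in all but the B3galt5D116A female (0.0655 FPKM). Kit, the stem cell factor receptor and the most abundant gene of the list, was at 12.7 and 12.1 FPKM in St6galnac6-/- libraries, 13.9 and 10.6 FPKM in B3galt5D116A, 12.0 and 17.4 FPKM in B3gnt7-/-, and 9.40 and 14.4 FPKM in WT, with a log2 difference of 0.08 in St6galnac6-/- (SE 0.23, limma adjusted p = 0.948). The protease Tpsb2 was highest in the B3gnt7-/- female, at 0.396 FPKM, against 0 to 0.257 FPKM in the others. Mcpt2 was highest in the St6galnac6-/- libraries, at 0.994 and 0.494 FPKM, against 0 to 0.268 FPKM in the others.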
